A study of Homo sapiens with 4 samples.

Results

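The 10 genes described here code for the replicative helicase subunits MCM2, MCM3, MCM4, MCM5, MCM6 and MCM7, the sliding clamp PCNA, the catalytic polymerase subunits POLD1 and POLE, and the single-strand DNA binding protein RPA1. They were chosen by name, with earlier results of these data known, and their RNAs were examined for IGF2BP2 binding in Jurkat cells. A gene's peaks were all sense peaks that the lists assign to its Ensembl gene, that is, peaks on the gene's own strand whose main region is neither antisense nor intergenic. The position of every gene was checked on GRCh38. The 10 genes held 118 of the 74237 sense peaks of replicate 1 and 161 of the 77288 sense peaks of replicate 2. They are 10 of 20428 gene identifiers with a sense peak in either list.

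DNA replication starts where MCM2 to MCM7 are loaded on chromatin as a ring-shaped hexamer, a step called licensing. The ring unwinds the double helix once CDC45 and the GINS proteins join it. DNA polymerase epsilon (POLE) then copies mainly the leading strand and DNA polymerase delta (POLD1) mainly the lagging strand. PCNA clamps the polymerases to DNA, and RPA1 is the largest subunit of the complex that coats single-stranded DNA. IGF2BP2 is a cytoplasmic RNA-binding protein that reads N6-methyladenosine in mRNA and is known to stabilise its target mRNAs.

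Jurkat is an established human T cell acute lymphoblastic leukaemia line. IGF2BP2-bound RNA was collected after UV crosslinking with an anti-IGF2BP2 antibody in 2 libraries (iRIP-seq), without any treatment or genetic change in the labels. The 2 input libraries were not analysed here. Both iRIP libraries are of 1 condition, so no test between groups could be made, and nothing in the labels says whether the replicates came from separate cultures. Sense peaks lay on 7 of 8 T cell marker genes in both replicates (ZAP70 36 and 37, LCK 12 and 12, CD3E 6 and 9) but on 1 of 6 B cell marker genes, PAX5, with 5 and 5. CD2 had 2 sense peaks in replicate 1 and none in replicate 2. Of the B cell genes, CD79A and MS4A1 had 1 in replicate 2 alone, and CD22 had 1 in replicate 1 alone.

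A peak is made of bins of 50 nt, and its height is given in tags, as the mean per bin where a peak is longer than 1 bin. Heights started at 4 tags in the list of replicate 1 and at 5 tags in that of replicate 2. Sequencing depth is unknown, and heights were not scaled between the libraries. How much of a gene's peak number follows the abundance of its RNA was not tested, since no input values were used.

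A start codon lay at or near the edge of a peak on POLD1 and POLE, and these stretches are shown because they place the peaks relative to it. On POLD1, the peak of replicate 2 at chr19:50398851-50398950 (plus strand, 6.5 tags, 99% coding sequence) began 1 base before the start codon. Its first bases, up to the end of the RefSeq start window on GRCh38.p14, are given here with the start codon in capitals.
POLD1 chr19:50398851-50398901: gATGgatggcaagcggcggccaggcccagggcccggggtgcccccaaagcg
On POLE, the peak of replicate 1 at chr12:132687251-132687300 (minus strand, 9 tags, 94% coding sequence) began 15 bases after the first base of the start codon. The stretch below runs from the start codon to the end of the same kind of window, and the capitals mark the bases inside the peak.
POLE chr12:132687293-132687315: atgtctctgaggagcGGCGGGCG
Replicate 1 had no POLD1 peak and replicate 2 no POLE peak at these places. The POLE peak was listed without 5′ UTR. Peaks listed with both 5′ UTR and coding sequence were not limited to POLD1. RPA1 and MCM7 had such peaks in both replicates, MCM2 in replicate 1 and MCM5 in replicate 2.

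MCM7 also hosts a microRNA cluster in its introns, MIR106B, MIR93 and MIR25 (chr7:100093560-100094074, minus strand, 515 nt). Their main mature products from RefSeq are shown with the seed, bases 2 to 8, in capitals, because the first pair share a seed and the third differs.
hsa-miR-106b-5p: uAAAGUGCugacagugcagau
hsa-miR-93-5p: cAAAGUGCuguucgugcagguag
hsa-miR-25-3p: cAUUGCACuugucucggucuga
Neither replicate had an MCM7 peak inside the cluster (0 and 0). The nearest MCM7 peak upstream lay 1677 nt away in replicate 1 and 77 nt away in replicate 2, and the nearest downstream lay 410 and 160 nt away. The MCM7 peaks therefore lay on the host RNA outside the microRNA hairpins. Only peaks assigned to MCM7 were counted, so whether peaks under other identifiers lay in the cluster is not shown.

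The counts below are a description, because the 10 genes were chosen with earlier results of these data known. The protein-coding genes set beside them include genes that found no name and count as without a peak. All 10 genes had a sense peak in both replicates, where 43.7% of 20056 protein-coding genes did. A peak of 1 replicate overlapped a peak of the other, by at least 1 bp on the same strand, in 8 of the 10 genes, against 15.0% of protein-coding genes. MCM6 and PCNA were the exceptions, with peaks in both lists but at different places. MCM2, MCM3, MCM7 and POLE, 4 of the 10 genes, reached 10 tags in each list, which 3.75% of protein-coding genes did. MCM5 and POLD1 reached that height in replicate 2 alone, which made 6 genes there. The share of protein-coding genes reaching it in replicate 2 was not computed. Of all sense peaks, 2.73% reached it in replicate 1 and 8.75% in replicate 2.

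Peaks per gene had a median of 8 in replicate 1 and 12.5 in replicate 2 over the 10 genes, and of 3 and 3 over the protein-coding genes with a peak. Per 10 kb of gene, introns included, the medians were 2.62 and 4.24 over the 10 genes and 0.591 and 0.647 over the genes with a peak. The median gene length was 28861 nt for the 10 genes and 24092.5 nt for all protein-coding genes. The latter include genes without a peak, so they are not the set behind the peak numbers and densities above. POLE alone held 42.4% and 38.5% of the peaks of the 10 genes. Replicate 2 had more peaks than replicate 1 on 7 genes and fewer on MCM4, PCNA and RPA1.

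**Figure D1:**
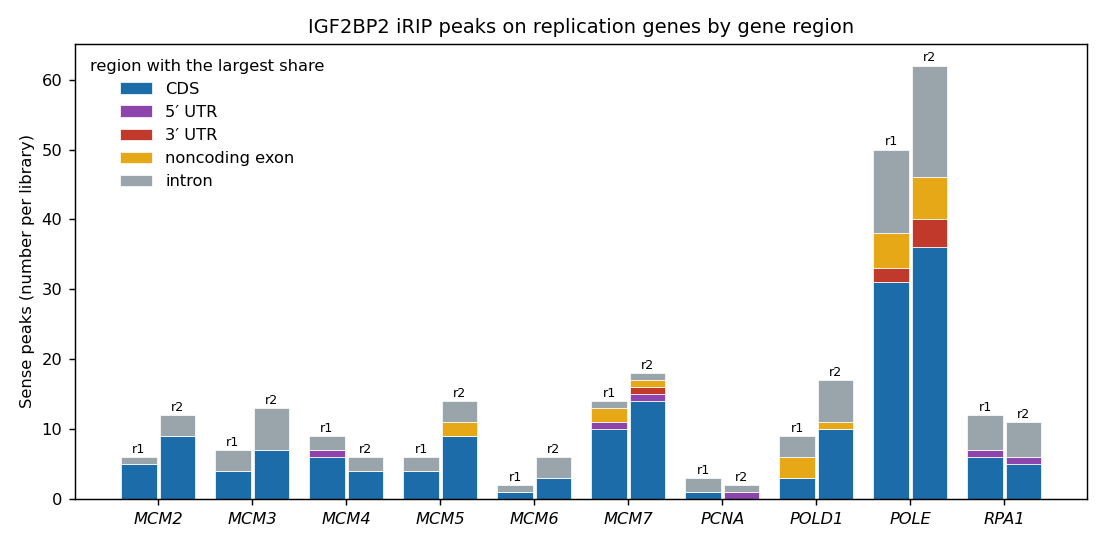
Number of sense peaks (y axis) on each of the 10 genes (x axis), with replicate 1 (r1) on the left and replicate 2 (r2) on the right of each pair. Colours give the region that takes the largest share of the peak, and coding sequence (CDS) is the largest class on MCM7 (10 and 14 peaks) and POLE (31 and 36 peaks).

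Among the helicase genes, MCM2 to MCM7 together had 44 peaks in replicate 1 and 69 in replicate 2, and 25 in each overlapped the other replicate. MCM7 (ENSG00000166508, chr7:100092728-100101397, minus strand) had 14 peaks in replicate 1 and 18 in replicate 2 (16 ± 2.83, SD, n = 2). This is 16.1 and 20.8 peaks per 10 kb, at the 99.2 and 99.3 percentile of all protein-coding genes. Of these peaks 10 in each replicate overlapped the other. The highest MCM7 peak, with 16 and 29 tags, was the same bin in both lists, chr7:100099001-100099050, of which 56% is coding sequence and 44% intron. It was the highest shared peak of the gene, and in replicate 2 the highest peak of all 10 genes.

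Among peaks of 1 bin at the same place in both lists, MCM7 held the 3 largest differences in height of the 10 genes. The bin at chr7:100100001-100100050 had 4 tags in replicate 1 and 28 in replicate 2. The bin at chr7:100101251-100101300, listed as 12% 5′ UTR and 62% coding sequence, had 5 and 26 tags. The bin at chr7:100097801-100097850 had 4 and 22 tags. All 8 MCM7 peaks of 1 bin listed at the same place in both replicates were higher in replicate 2, by 1.18 to 7 times with a median of 1.99. Over all 7791 such sense peaks 76.3% were higher in replicate 2 and the median was 1.4 times, and 19 of them (0.244%) reached 5 times, a limit set after the values were seen. Of these 19, 3 were the MCM7 bins just named, and the ratio of 7 was the highest of the 7791.

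MCM3 (ENSG00000112118, chr6:52264015-52284742, minus strand) had 7 peaks in replicate 1 and 13 in replicate 2 (10 ± 4.24, SD, n = 2), and 6 of the 7 in replicate 1 were overlapped. Its highest shared peak, chr6:52267851-52267900, lay 72% in coding sequence and measured 10 and 12 tags. The highest MCM3 peak of replicate 2 lay at chr6:52284551-52284600, 8% coding and 92% intron, with 14 tags against 6 in replicate 1. The other shared peaks of replicate 1 had 5 tags at chr6:52266601-52266700, 8 at chr6:52269051-52269100, 5 at chr6:52282651-52282700 and 5 at chr6:52283301-52283350. A peak of 4 tags at chr6:52269651-52269700, wholly in an intron, was the one MCM3 peak of replicate 1 without a partner.

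MCM2 (ENSG00000073111, chr3:127598411-127622436, plus strand) had 6 peaks in replicate 1 and 12 in replicate 2 (9 ± 4.24, SD, n = 2), with 4 overlapped in each. The highest peak of replicate 1, chr3:127604851-127604900, had 12 tags, and the peak of 4 bins that starts at the same base in replicate 2 had 7.25. The highest peak of replicate 2 was chr3:127606101-127606150 with 11 tags against 7 in replicate 1. These and the other shared peaks, from chr3:127604601 (4.67 and 10 tags) and chr3:127606601-127606650 (5 and 6 tags), lay within 6.21 to 8.21 kb of the gene start. The remaining peaks of replicate 1, with 8 tags at chr3:127599301-127599350 and 6 tags at chr3:127605101-127605150, had no partner. In replicate 2 the peaks went on to 22.7 kb from the start, at 5 to 7 tags, where replicate 1 had none beyond 8.21 kb.

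MCM5 (ENSG00000100297, chr22:35400140-35455031, plus strand) had 6 peaks in replicate 1 and 14 in replicate 2 (10 ± 5.66, SD, n = 2). Overlap was found at 2 places, both mainly coding, chr22:35408401-35408450 with 7 and 11 tags and chr22:35423201-35423250 with 7 and 8 tags. The other 4 peaks of replicate 1 had 4, 4, 6 and 4 tags. In replicate 2, the highest peak, chr22:35416601-35416650, had 14 tags and no partner in replicate 1. Its peak numbers differed by 8 between the replicates, the widest gap among the MCM genes.

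MCM4 (ENSG00000104738, chromosome 8, 17220 nt) had 9 peaks in replicate 1 and 6 in replicate 2 (7.5 ± 2.12, SD, n = 2), and 3 overlapped in each. The shared peaks lay 1.38 kb from the gene start with 6 and 7 tags, at 5.23 kb with 5 and 5.67 tags, and at 14.8 kb with 6 and 6 tags. The first and the last lay mainly in coding sequence in both lists. The highest MCM4 peak was 9 tags at 6.43 kb in replicate 1, without a partner, and the 5 remaining peaks of replicate 1 had 4 tags each. Those of replicate 2 had 6, 5 and 5 tags. MCM4 was the one helicase gene with fewer peaks in replicate 2.

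MCM6 (ENSG00000076003, chr2:135839626-135876443, minus strand) had 2 peaks in replicate 1, the fewest of the helicase genes, and 6 in replicate 2, the same number as MCM4 (4 ± 2.83, SD, n = 2), with no overlap. Those of replicate 1 had 4 and 4 tags, at chr2:135868601-135868650 in coding sequence and at chr2:135875251-135875300 in an intron. Those of replicate 2 had heights from 5 to 8 tags, the highest at chr2:135870251-135870300 and chr2:135876251-135876300, both mainly coding. All lay within 10.3 kb of the start of this gene of 36818 nt. MCM6 had 0.543 and 1.63 peaks per 10 kb, the lowest density of the 10 genes in replicate 1.

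**Figure D2:**
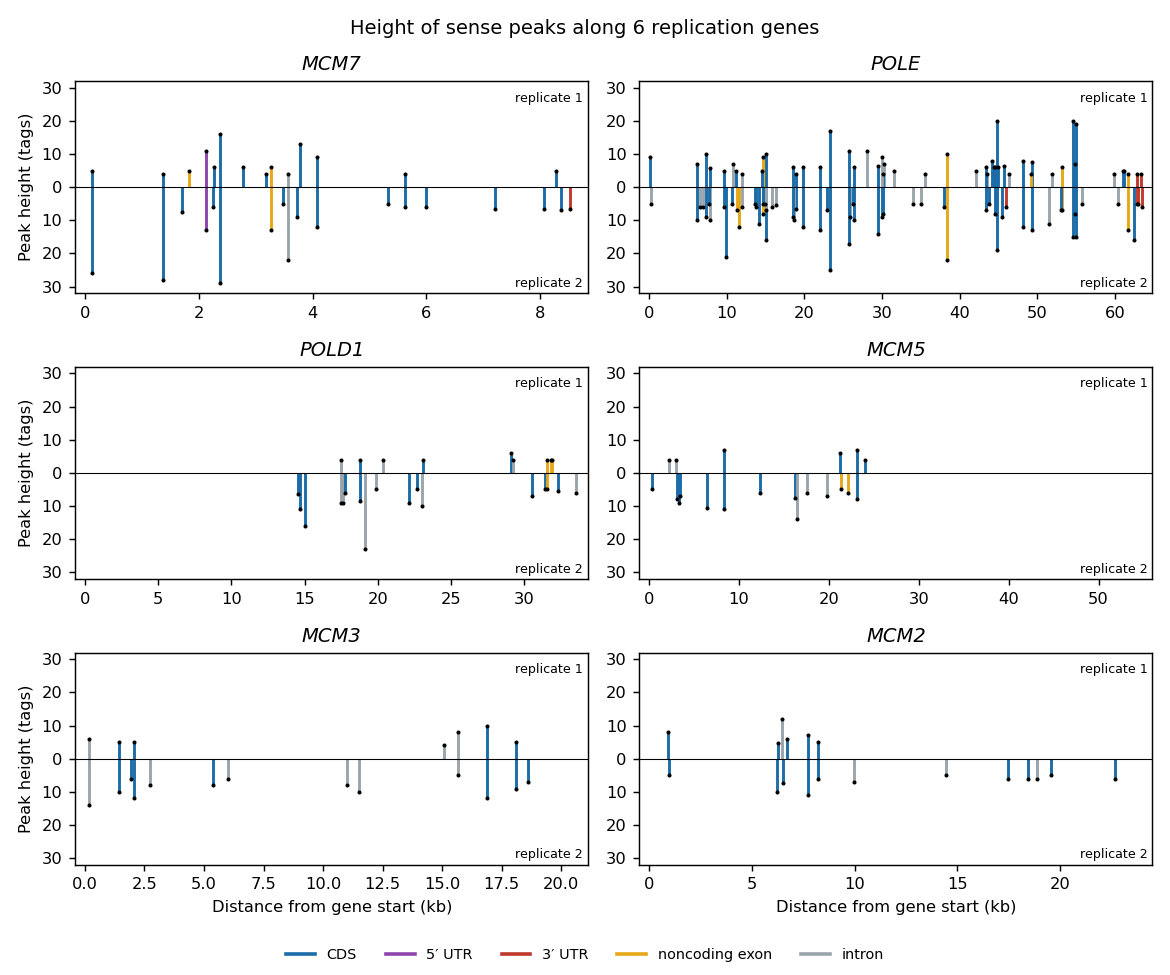
Height of each sense peak (y axis, tags; replicate 1 upward, replicate 2 downward) against its distance from the RefSeq gene start in transcribed direction (x axis, kb) for MCM7, POLE, POLD1, MCM5, MCM3 and MCM2. Colours give the main region. MCM7 reaches 29 tags in replicate 2, POLE has peaks along its whole length, POLD1 starts at 14.6 kb, and MCM5 peaks end at 24.0 kb.

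Of the polymerases, POLE (ENSG00000177084, chr12:132623762-132687342, minus strand) had 50 peaks in replicate 1 and 62 in replicate 2 (56 ± 8.49, SD, n = 2), at the 99.7 and 99.8 percentile of all protein-coding genes. Over its gene length of 63581 nt, introns included, this was 7.86 and 9.75 peaks per 10 kb, below MCM7. Exon lengths were not used. In each replicate 28 POLE peaks were overlapped, and 31 and 36 lay mainly in coding sequence. Heights ran from 4 to 20 tags with a median of 6 in replicate 1, and from 5 to 25 with a median of 7.5 in replicate 2. The highest shared peak, chr12:132642501-132642550, measured 20 and 19 tags, with 90% coding sequence. At chr12:132632651-132632700 the heights were 20 and 15 tags, and at chr12:132632301-132632350 they were 19 and 15. At chr12:132664001-132664050 they were 17 and 25 tags, the highest of POLE in replicate 2. Of the 18 POLE peaks of 1 bin at the same place, 13 (72.2%) were higher in replicate 2 and 5 in replicate 1, with a median ratio of 1.34. Over all such sense peaks the share was 76.3% and the median ratio 1.4.

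POLD1 (ENSG00000062822, chr19:50384323-50418018, plus strand) had 9 peaks in replicate 1 and 17 in replicate 2 (13 ± 5.66, SD, n = 2), with 3 overlapped in each. The shared peaks had 4 and 9 tags at chr19:50401751-50401800, 4 and 8.33 tags from chr19:50403051, and 4 and 5 tags at chr19:50415851-50415900. No peak of replicate 1 was higher than 6 tags, at chr19:50413401-50413450, and the others all had 4. Replicate 2 had 23 tags at chr19:50403451-50403500, at a junction of coding sequence (16%) and intron, and 16 tags at chr19:50399351-50399400, neither of them listed in replicate 1. The first POLD1 peak of either list lay 14.6 kb from the RefSeq gene start, at the start codon.

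PCNA (ENSG00000132646, chr20:5114953-5126622, minus strand) had 3 peaks in replicate 1 and 2 in replicate 2 (2.5 ± 0.707, SD, n = 2), the lowest number among the 10 genes over both replicates. In replicate 1 they had 6 tags at chr20:5119701-5119750 in coding sequence, 5 tags at chr20:5120951-5121000 and 4 tags at chr20:5125251-5125300, the last pair in introns. In replicate 2 they had 6 tags at chr20:5119551-5119600, 46% coding and 54% intron, and 6 tags at chr20:5119801-5119850 in the 5′ UTR. None overlapped, although the exonic peak of replicate 1 lay between those of replicate 2. PCNA was the one gene without a peak mainly in coding sequence in both replicates.

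RPA1 (ENSG00000132383, chr17:1830005-1900082, plus strand) had 12 peaks in replicate 1 and 11 in replicate 2 (11.5 ± 0.707, SD, n = 2), all low. The highest was the same in both, chr17:1842801-1842850, 96% coding sequence, with 6 and 8 tags. The other shared peaks were chr17:1830051-1830100, 86% 5′ UTR, with 4 and 5 tags, and chr17:1853101-1853150, wholly coding, with 4 and 5 tags. The peak numbers were close, yet 3 of 12 and 3 of 11 peaks overlapped.

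Over the 10 genes, all protein-coding, peaks lay in coding sequence more often than sense peaks did in general. Sense peaks in general include those on genes that are not protein-coding. How much this adds to the gap was not tested. Mainly coding were 60.2% of their peaks in replicate 1 (71 of 118, 95% Wilson interval 51.2 to 68.5%) and 60.2% in replicate 2 (97 of 161, 52.5 to 67.5%), against 19.9% and 25.6% of all sense peaks. Without POLE the shares were 58.8% and 61.6%. Wholly in an intron were 15.3% and 12.4%, against 62.8% and 53.9% of all sense peaks. These intervals cover counting error only, and peaks of 1 gene come from 1 RNA and are not independent.

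Peaks at exon edges were common. Coding sequence and intron were both covered by 44.9% of the peaks in replicate 1 and 54.7% in replicate 2, against 15.5% and 21.0% of all sense peaks. Among peaks with any coding sequence, the shares were 57.0% and 66.7% for the 10 genes and 56.2% and 59.2% for all. The intervals for the 10 genes, 46.8 to 66.6% and 58.3 to 74.1%, held the shares of all sense peaks. The 3′ UTR was the main region of 2 and 5 peaks, all on POLE (2 and 4) and MCM7 (0 and 1).

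Peaks of the 10 genes were also overlapped by the other replicate more often. In replicate 1 this was 50% (59 of 118, 41.1 to 58.9%) against 16.6% of all sense peaks, and in replicate 2 it was 36.6% (59 of 161, 29.6 to 44.3%) against 15.8%. Without POLE the shares were 45.6% and 31.3%. Within mainly coding peaks the gap was smaller, 57.7% against 45.8% in replicate 1 and 45.4% against 35.0% in replicate 2. Among high peaks, those from 10 tags up, the other list overlapped 13 of 14 (92.9%, 68.5 to 98.7%) and 29 of 43 (67.4%, 52.5 to 79.5%). Over all genes the shares were 73.5% and 62.4%, and these intervals held them. None of the 18 and 20 peaks lying wholly in an intron was overlapped, which allows a share of up to 16.7% and 15.0%, and 2.91% and 3.22% of all such peaks were.

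Heights of the 10 genes' peaks had a lowest value of 4, a median of 5 and a highest of 20 tags in replicate 1, and 5, 7 and 29 tags in replicate 2. All sense peaks had a median of 4 and 5 tags. At least 10 tags were reached by 11.9% of the genes' peaks in replicate 1 and 26.7% in replicate 2, against 2.73% and 8.75% of all sense peaks. For mainly coding peaks the gap was smaller. The shares were 14.1% (7.83 to 24.0%) against 8.02% in replicate 1 and 29.9% (21.7 to 39.6%) against 20.5% in replicate 2. The interval of replicate 1 held the share of all mainly coding peaks, and that of replicate 2 did not. Peaks on the opposite strand at the same identifiers numbered 6 and 8, on 7 of the 10 genes, where 40.9% of protein-coding genes had one in either list. Their heights were 4 to 5 and 5 tags. None of them was overlapped in the other replicate, and of all antisense peaks 0.654% and 0.821% were.

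The other genes of DNA replication were taken as a list of 52, also chosen with earlier results of these data known. Of these, 42 (80.8%) had a sense peak in both replicates, beside the 43.7% of all protein-coding genes, and 21 had an overlapped peak, beside 15.0%. By role, peaks in both replicates were found on 11 of 12 licensing genes, 9 of 12 genes of origin firing, 7 of 10 other polymerase and primase genes, 1 of 2 RPA genes, 6 of 7 clamp loader genes, 4 of 5 genes of lagging strand maturation and topology, and 4 of 4 fork protection genes. Their median was 3 peaks in replicate 1 and 4 in replicate 2, below the 8 and 12.5 of the 10 genes.

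Ranked by the lower count of the replicates, the most peaks lay on CHTF18, a subunit of an alternative clamp loader, with 27 in replicate 1 and 26 in replicate 2. LIG1, the ligase that joins Okazaki fragments, had 21 and 24, and TOP1, which relaxes supercoiled DNA, had 17 and 16. TIMELESS, which stabilises forks, had 16 and 15. RECQL4, a helicase of replication initiation, had 11 and 16, and the loader of the MCM ring CDT1 had 10 and 12. Mainly coding peaks were common here too, 12 and 14 on CHTF18, 10 and 12 on LIG1, and 7 and 8 on TOP1. TIMELESS had 10 and 10, RECQL4 5 and 10, and CDT1 7 and 7. The coding share over all 52 genes was not computed. Of the 52, 5 reached 10 tags in each list, CHTF18, TOP1, RECQL4, CDT1 and TOP2A, beside 3.75% of protein-coding genes. TOP2A, a topoisomerase that untangles daughter chromosomes, had 9 and 15 peaks of up to 20 and 21 tags. DONSON, POLE4 and RFC4 had no sense peak in either list.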

How the data were processed

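IGF2BP2 iRIP-seq peak lists of 2 libraries were used. According to the paper's methods and the submitters' processing notes, the authors demultiplexed reads with bcl2fastq, aligned them with TopHat2 to GRCh38, kept uniquely mapped reads, called peaks per library with ABLIRC and dropped those overlapping a peak of the input. The gene annotation and the number of reads per library are not given in the sources used here. Removal of input peaks takes away binding sites where input reads also pile up. Heights were deposited as a signal in tags and are not scaled for depth. The deposited p-value of a peak was used only as a filter. Listed starts count from 0, and 1 was added here. Height times the number of 50-nt bins was whole in 100% of peaks.

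Identifiers were named by position. An identifier took the symbol of the RefSeq gene (GRCh38.p14) that held at least 80% of its coding and UTR peaks within 1000 nt, which named 15570 of 20428, of them 12656 protein-coding. Counts over protein-coding genes take all 20056 in that table, so a gene whose identifier found no name counts as without a peak. Overlap needed 1 bp on the same strand. Intervals are 95% Wilson intervals, and limits for a count of 0 use 3 counts. Both cover counting error only. Percentiles count genes without a peak. Overlap and naming were tested on simulated data, with 2700 of 2700 right. The members and lists were chosen with earlier results of these data known. Named were all 10 genes, their highest and highest shared peaks, all peaks where a gene had 10 or fewer in a replicate unless given as a range, the 6 other genes with the most peaks by the lower count of the replicates and those without any. T and B cell markers and TOP2A were added after seeing values. Python 3.11.15, numpy 2.4.6, pandas 2.3.3, scipy 1.17.1 and matplotlib 3.10.9 were used. Alternatives changed the height, the p-value, the region, the gene assignment and the overlap rule.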

Additional observations from a re-analysis of the deposited data

How the results depend on the processing

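Of 49 recomputed values, 34 stayed close to the reported one, within 1.5 times for counts and within its 95% interval for shares. Those for touching peaks, strand ignored, overlap of at least 50% of the shorter peak, exonic peaks and RefSeq intervals were among them. Some of the 34 could not move. Replicate 2 starts at 5 tags, so its peak number and coding share at that limit were fixed. An overlapped peak of 1 bin is covered whole on the 50-nt grid, so the 50% rule could drop only pairs of longer peaks. With peaks of at least 10 tags in both lists, 4 genes had a peak in both replicates and 3 an overlapped one. Peak numbers were then 14 and 43, the overlapped shares 71.4% and 23.3%, and 71.4% of those of replicate 1 lay mainly in coding sequence. With at least 5 tags in both lists, 9 genes had a peak in both replicates and 7 an overlapped one. Replicate 1 then had 73 peaks, 61.6% of them overlapped and 74.0% mainly coding, and the overlapped share in replicate 2 was 28.6%. With p under 0.001 these genes were 8 and 7, and the lists held 46 and 81 peaks, of which 73.9% and 67.9% lay mainly in coding sequence. Each stricter limit keeps fewer peaks by construction, and the cause of the other shifts was not tested. With either replicate left out, 10 genes had a peak in the other. This follows from all 10 having a peak in both lists, so these values, counted among the 34, could not move. No paired analysis was possible because both libraries with a peak list are of 1 condition and no test was made. Unknown depth limits what an unlisted peak means, and a peak missing from 1 list was not shown to be unbound.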

Other observations

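The RefSeq interval of MCM5 runs on past its last listed peak. In the rest of the interval the lists held plus-strand peaks classed as intergenic, 3 in replicate 1 with 4 to 5 tags and 7 in replicate 2 with 5 to 6 tags, and 1 minus-strand peak in each. None of them was overlapped in the other replicate. They were not counted as MCM5 peaks.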
